A study of Mus musculus with 21 samples.

Results

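The 10 genes described here are markers of Langerhans cells and dendritic cells, chosen by symbol from a table of 64050 gene symbols counted in 21 libraries of mouse skin. They are Cd207 and Epcam, Cd209a and Ly75, Siglech, Xcr1 and Clec9a, Itgax, Flt3 and Batf3. All 10 were in the table and all 10 passed the filter on low counts, which left 20462 genes to test. Skin came from BALB/c recipients that were 8 weeks old when they were irradiated with 700 cGy and given bone marrow. Marrow of B10.D2 donors (allogeneic) leads to a chronic graft-versus-host disease with skin fibrosis, used as a model of systemic sclerosis, and marrow of BALB/c donors (syngeneic) served as the control. Treatment started on day 21, lasted 4 weeks, and skin was taken at week 7. The anti-IL1RAP group (named mCAN10 in the labels, 4 libraries) was allogeneic and received an antibody against mouse IL1RAP, a receptor chain shared by IL-1, IL-33 and IL-36 signalling. The allogeneic isotype group (Allo, 4 libraries) and the syngeneic isotype group (Syn, 4 libraries) received the isotype antibody mIgG2a LALA-PG. Antibodies were given into the peritoneum, first at 20 mg/kg and then at 10 mg/kg. The nintedanib group (Nin, 5 libraries) was allogeneic and received this tyrosine kinase inhibitor at 50 mg/kg. Its stated route and schedule differ between the sources (daily by mouth, or less often into the peritoneum) and are uncertain here. The allogeneic water group (Allo_H, 4 libraries) is its control. The donor strain parts allogeneic from syngeneic skin together with the disease, so the strain and the disease cannot be told apart. Bone marrow alone was given from the donor, and how many Langerhans or dendritic cells of the host remained in the skin was not measured.

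Langerhans cells are the antigen-presenting cells of the epidermis. They carry langerin, the product of Cd207, depend on IL-34 and TGF-beta, and renew locally in undisturbed mouse skin, while inflammation or loss of the host's cells lets cells from the marrow replace them. The dermis holds conventional dendritic cells of type 1 (XCR1+, CLEC9A+, dependent on the transcription factor BATF3), which present antigen to CD8+ T cells, and of type 2, which mostly prime CD4+ T cells and other helper responses. Plasmacytoid dendritic cells, marked by Siglec-H in mice, make type I interferon. FLT3, the receptor for FLT3 ligand, drives dendritic cell development. Some of the markers are shared with other cells. Epcam is also made by epithelial cells, Itgax by macrophages, Ly75 by other leukocytes and epithelial cells, and Batf3 by activated lymphocytes. Some Cd207 is made by a subset of dermal type 1 dendritic cells.

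The promoters of 3 markers on which the comparisons below turn are shown first, as the 250 bases before the RefSeq start of each gene on GRCm38.p6, 5′ to 3′ on the strand of the gene. Capitals mark the motifs that were searched for on both strands, namely TGANTCA (AP-1 and BATF type), CACCTG (E-protein type), an interferon response motif, GAGGAAG (PU.1 type) and TTCNNNGAA (STAT type). The windows lie at chr6:83677858-83678107 on the minus strand for Cd207, chr8:3748985-3749234 on the minus strand for Cd209a and chr7:55767934-55768183 on the plus strand for Siglech.
Cd207: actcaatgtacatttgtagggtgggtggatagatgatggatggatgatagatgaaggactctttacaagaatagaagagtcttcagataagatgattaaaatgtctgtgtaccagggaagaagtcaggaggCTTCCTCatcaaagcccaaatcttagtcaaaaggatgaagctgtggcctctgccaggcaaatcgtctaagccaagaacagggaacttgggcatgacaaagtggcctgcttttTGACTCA
Cd209a: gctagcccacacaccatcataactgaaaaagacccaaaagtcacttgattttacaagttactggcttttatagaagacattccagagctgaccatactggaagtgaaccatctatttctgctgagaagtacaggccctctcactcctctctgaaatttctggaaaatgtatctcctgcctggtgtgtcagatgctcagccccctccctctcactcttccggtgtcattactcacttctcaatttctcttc
Siglech: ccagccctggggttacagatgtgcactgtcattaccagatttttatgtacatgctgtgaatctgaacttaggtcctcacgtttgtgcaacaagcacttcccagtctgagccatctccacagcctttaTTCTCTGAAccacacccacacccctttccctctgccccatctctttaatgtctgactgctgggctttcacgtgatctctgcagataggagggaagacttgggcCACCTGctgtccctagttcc
The Cd207 window held TGANTCA ending directly before the start, with its first base 7 bases before it, and the reverse complement of GAGGAAG 119 bases before it. The Siglech window held CACCTG 20 bases and TTCNNNGAA 123 bases before the start. No capital stands in the Cd209a window, where none of the 5 motifs was found. Over the 10 markers, TGANTCA was in 2 windows (Cd207 and Itgax) and in 6.75% of all 32851 promoter windows of this length. CACCTG was in 2 (Siglech and Epcam) against 17.2% of all windows, GAGGAAG in 2 (Batf3 and Cd207) against 10.6%, TTCNNNGAA in 2 (Batf3 and Siglech) against 7.02%, and the interferon response motif in 0 against 2.98%. These matches describe letters in a window and not binding.

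RNA was taken from skin pieces 3 mm in diameter, and the libraries held 17130264 to 32899212 counted reads. Levels are given as CPM (counts scaled to a common library size, with TMM factors between libraries), and they are compared between groups for 1 gene at a time. The libraries were counted in 2 runs, the first with the anti-IL1RAP, allogeneic isotype and syngeneic isotype groups and the second with the nintedanib and allogeneic water groups, and no group of one run was set directly against a group of the other. Whole skin pieces varied in what they held. The 10 skeletal muscle genes checked took between 0.00115% and 5.88% of the reads of a library. Y-linked genes had counts in anti-IL1RAP replicate 2, in nintedanib replicates 2 and 4 and in all 4 syngeneic libraries, and none in the remaining libraries. They thus part every syngeneic from every allogeneic isotype library. The sex of donors and recipients is not in the labels, and a difference in sex cannot be told apart from the disease in that comparison. Lane notes in the labels cover nintedanib replicates 2, 3 and 5 and allogeneic water replicates 1 and 2. Keratin and collagen genes that identify skin were abundant in every library (8900 to 85300 CPM for 8 genes summed). In such bulk samples, fewer cells of a type and less RNA per cell cannot be told apart. The labels do not say whether each library is a separate mouse, so p-values measure the spread between these samples.

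**Figure D1:**
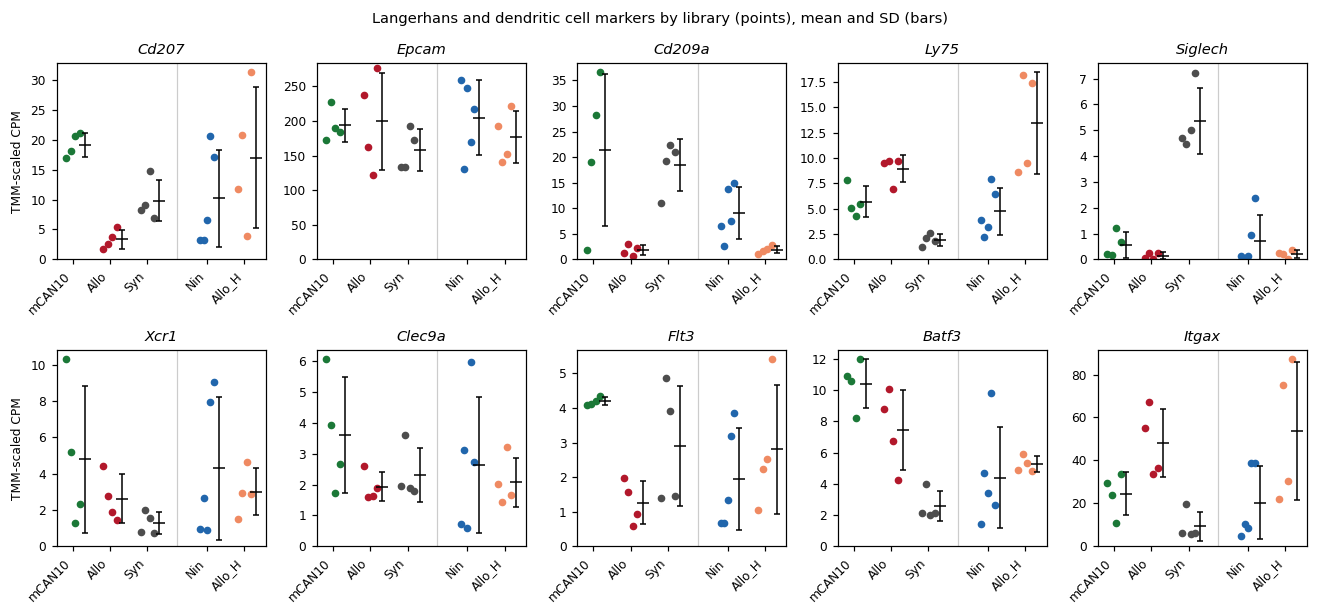
Level of each of the 10 markers in every library, as TMM-scaled CPM, with a point for each library and a bar at each group mean. Cd209a lies at 0.725 to 2.96 CPM in the 4 allogeneic isotype libraries and at 11.0 to 22.4 CPM in the 4 syngeneic libraries, and Siglech is above 4 CPM only in syngeneic libraries.

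Allogeneic isotype skin was set against syngeneic isotype skin to show how the markers stood in the disease model. The markers did not move as a block. Cd209a and Siglech fell, Ly75, Itgax and Batf3 rose, and the other 5 did not pass the test. This makes 5 of 10 called at an adjusted p under 0.05 (edgeR's quasi-likelihood test, Benjamini-Hochberg adjustment over all genes), where 22.6% of all 20462 genes tested were called (13.8% higher and 8.8% lower). The median log2 fold change was 0.04 over the 10 markers and 0.02 over all genes with counts in these groups.

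Siglech, the plasmacytoid dendritic cell lectin, had 1, 5, 0 and 4 reads in allogeneic isotype skin, against 121, 104, 112 and 221 reads in syngeneic skin. In CPM this was 0.0459, 0.26, 0 and 0.25 in allogeneic isotype skin, against 4.72, 4.46, 5.01 and 7.23 in syngeneic skin. The groups lie far apart, and the allogeneic values rest on 10 reads in all. The fitted difference was −5.27 ± 1.09 (log2 fold change ± SE, adjusted p = 0.00215 by edgeR), 38.7-fold lower in allogeneic isotype skin. Muscle genes, which are not expressed by dendritic cells, summed to 11.2 to 55900 CPM in allogeneic isotype skin and 37700 to 59000 CPM in syngeneic skin. With muscle content as a covariate the Siglech difference was −4.44 (adjusted p = 0.0189, edgeR).

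Cd209a encodes a mouse relative of human DC-SIGN and marks dermal type 2 and monocyte-derived dendritic cells. It had 1.28, 2.96, 0.725 and 2.25 CPM in allogeneic isotype skin, against 11.0, 19.3, 22.4 and 20.9 CPM in syngeneic skin. Every allogeneic library lay below every syngeneic one, with means of 1.81 ± 0.996 and 18.4 ± 5.06 CPM (SD, n = 4 each). The log2 fold change was −3.35 ± 0.69 (adjusted p = 0.00207, edgeR).

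Cd207, the langerin gene, had 1.74, 2.6, 3.68 and 5.38 CPM in allogeneic isotype skin, against 8.31, 9.18, 14.8 and 7.0 CPM in syngeneic skin. The groups did not overlap, but the log2 fold change of −1.56 ± 0.60 missed the threshold (adjusted p = 0.07, edgeR). It passed when the 12 libraries of the first run were fitted alone (−1.59, adjusted p = 0.003). Epcam, the epithelial and Langerhans cell adhesion molecule, overlapped between the groups, at 237, 162, 122 and 276 CPM in allogeneic isotype skin and 133, 133, 193 and 173 CPM in syngeneic skin (0.33 ± 0.25 log2, adjusted p = 0.361, edgeR).

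Ly75 encodes the endocytic receptor DEC-205. It had 9.49, 9.67, 6.92 and 9.75 CPM in allogeneic isotype skin, against 1.17, 2.1, 2.6 and 1.77 CPM in syngeneic skin. The groups did not overlap and Ly75 rose 4.69-fold (2.23 ± 0.37 log2, adjusted p = 0.000437, edgeR). Itgax, the gene of the integrin chain CD11c, had 55.1, 67.4, 33.6 and 36.5 CPM in allogeneic isotype skin, against 6.28, 19.6, 5.69 and 6.02 CPM in syngeneic skin. It rose 5.14-fold without overlap (2.36 ± 0.65 log2, adjusted p = 0.0131, edgeR). Batf3, the transcription factor of type 1 dendritic cells, had 8.81, 10.1, 6.72 and 4.25 CPM in allogeneic isotype skin, against 2.15, 3.99, 2.01 and 2.16 CPM in syngeneic skin. It rose 2.9-fold without overlap (1.54 ± 0.42 log2, adjusted p = 0.0124, edgeR). Over the 10 markers, 6 had groups that did not overlap, where 29.2% of all genes did so. All 5 calls held in each of the 17 alternative settings run for this comparison.

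Xcr1 and Clec9a, which belong to type 1 dendritic cells more strictly than Batf3, were not called, and neither was Flt3. Xcr1, the receptor for the chemokine XCL1, had 4.45, 2.76, 1.89 and 1.44 CPM in allogeneic isotype skin and 0.82, 2.02, 1.57 and 0.719 CPM in syngeneic skin, with overlap (1.05 ± 0.73 log2, adjusted p = 0.328, edgeR). Clec9a, a receptor for actin exposed by dead cells, had 2.61, 1.61, 1.64 and 1.88 CPM in allogeneic isotype skin and 1.95, 3.6, 1.88 and 1.8 CPM in syngeneic skin (−0.25 ± 0.55 log2, adjusted p = 0.81, edgeR). Flt3 had 1.97, 1.56, 0.58 and 0.938 CPM in allogeneic isotype skin and 1.4, 4.85, 3.9 and 1.47 CPM in syngeneic skin (−1.19 ± 0.59 log2, adjusted p = 0.16, edgeR). The 95% interval of the Flt3 difference, −2.35 to −0.03, uses the normal quantile and is narrower than the test implies. With an unadjusted p of 0.0595 (edgeR), the test does not exclude that Flt3 was unchanged.

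Genes of other leukocytes stood higher in the same libraries. Ptprc, the pan-leukocyte gene CD45, rose (1.60 ± 0.48 log2, adjusted p = 0.0213, edgeR), though not without any 1 of syngeneic replicates 1, 3 and 4 or allogeneic isotype replicate 2, nor with muscle as a covariate (adjusted p between 0.0583 and 0.0729). Of 12 T cell genes 12 rose, and their sum was 72.2 to 205 CPM in allogeneic isotype skin and 11.8 to 24.5 CPM in syngeneic skin. Of 16 macrophage and monocyte genes 10 rose and 0 fell, with sums of 2030 to 5150 CPM in allogeneic isotype skin and 784 to 1500 CPM in syngeneic skin. Of 12 hair follicle and sebaceous gland genes 0 rose and 5 fell, with sums of 172 to 2330 CPM in allogeneic isotype skin and 2710 to 4780 CPM in syngeneic skin, without overlap. The sum of 6 basal keratinocyte genes was 13400 to 17200 CPM in allogeneic isotype skin and 7000 to 12300 CPM in syngeneic skin, also without overlap, and 1 of the 6, Krt14, was called higher. The 10 neutrophil genes summed to 137 to 258 CPM in allogeneic isotype skin and 24.9 to 66.5 CPM in syngeneic skin. The part of skin structure and of neutrophils in the marker changes was not tested. Itgax is shared with macrophages and Batf3 with lymphocytes, and the part of those cells in their rise was not tested.

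In the wider dendritic cell lists, genes called in both directions were found in the type 2, plasmacytoid and mature lists. Over all genes tested, 13.8% were called higher and 8.8% lower in this comparison. The Langerhans cell and type 1 lists lay near the share called higher. Of 12 Langerhans cell genes, 2 rose and 0 fell, Cd74 (the MHC class II invariant chain, 1.95 ± 0.55 log2, adjusted p = 0.0151) and Runx3 (a transcription factor also used by T cells, 1.48 ± 0.44 log2, adjusted p = 0.02). Of 12 type 1 genes, 2 rose and 0 fell, Batf3 and Irf8 (1.53 ± 0.50 log2, adjusted p = 0.0344), a transcription factor also found in macrophages and B cells. Of 11 type 2 genes tested, 5 rose and Cd209a alone fell. The lowest p-values among those that rose were those of Ccl17, a chemokine that draws CCR4+ T cells (5.38 ± 1.03 log2, adjusted p = 0.00124), Klf4, which keratinocytes also make (0.90 ± 0.21 log2, adjusted p = 0.00569), and Tnip3, an inhibitor of NF-kB (2.31 ± 0.59 log2, adjusted p = 0.00925). All these p-values are from edgeR's fit over all genes. Cd74 missed the threshold without syngeneic replicate 4 (adjusted p = 0.05), Runx3 without syngeneic replicate 1 or 4 or allogeneic isotype replicate 1 or 2 (adjusted p between 0.0519 and 0.0632), and Irf8 without syngeneic replicate 1, 3 or 4 or allogeneic isotype replicate 1 or 2 (adjusted p between 0.0767 and 0.0988).

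Of 10 plasmacytoid genes tested, 6 rose (Bst2, Irf7, Ccr9, Runx2, Ly6d and Spib) and 2 fell (Siglech and Tcf4). Tcf4, the gene of the E protein E2-2, is also made by fibroblasts and other cells. It had 50.3, 44.8, 35.2 and 46.2 CPM in allogeneic isotype skin, against 61.3, 63.0, 67.3 and 54.5 CPM in syngeneic skin. Bst2 (2.13 ± 0.40 log2, adjusted p = 0.00112) and Irf7 (1.75 ± 0.42 log2, adjusted p = 0.00602) are interferon-induced in many cell types, and Ccr9 (1.72 ± 0.35 log2, adjusted p = 0.00209, all edgeR) encodes a chemokine receptor also carried by T cells. The more restricted plasmacytoid genes Ptcra and Klra17 did not pass the filter, with at most 0.223 and 0.624 CPM in any of the 21 libraries. Of 14 genes of mature and migrating dendritic cells tested, 7 rose and 1 fell. The 4 with the lowest p-values were Pdcd1lg2 (the gene of PD-L2, 5.4 ± 0.74 log2, adjusted p = 0.000112), Cd274 (the gene of PD-L1, 3.95 ± 0.71 log2, adjusted p = 0.000773), Il12b (a subunit of IL-12 and IL-23, 4.85 ± 0.98 log2, adjusted p = 0.00191) and Cd40 (2.59 ± 0.56 log2, adjusted p = 0.00301, all edgeR). Ccr7, which guides dendritic cells to lymph nodes, had 4.31, 6.91, 3.53 and 2.31 CPM in allogeneic isotype skin, against 0.234, 0.686, 0.985 and 0.425 CPM in syngeneic skin (2.88 ± 0.75 log2, adjusted p = 0.00987, edgeR). Cd274 and Cd40 are made by many cell types, and which cells carried these genes was not measured.

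Among 14 growth factor, attractant and receptor genes tested, 3 rose and 0 fell. These were Csf2rb, the shared receptor chain for GM-CSF (1.71 ± 0.44 log2, adjusted p = 0.00965), Xcl1, the ligand of XCR1 (2.60 ± 0.83 log2, adjusted p = 0.0301), and Ccl20, which attracts CCR6+ cells (2.06 ± 0.72 log2, adjusted p = 0.0449, all edgeR). Xcl1 missed the threshold without syngeneic replicate 1, 2 or 4 or allogeneic isotype replicate 2 (adjusted p between 0.0543 and 0.0987). Ccl20 lost its call in 11 of 17 alternative settings, and its log2 fold change was 1.16 without allogeneic isotype replicate 4 (adjusted p = 0.271). Flt3l, the FLT3 ligand gene (−0.38 ± 0.23 log2, adjusted p = 0.261), Csf1 (0.11 ± 0.21 log2, adjusted p = 0.773) and Il34 (−0.58 ± 0.30 log2, adjusted p = 0.176, all edgeR) did not pass. Il34 nonetheless had no overlap, at 45.9, 66.3, 36.2 and 68.3 CPM in allogeneic isotype skin and 76.5, 73.9, 85.2 and 87.5 CPM in syngeneic skin, and it passed when the first run was fitted alone (adjusted p = 0.0268). Csf2, the gene of GM-CSF, was filtered out, with at most 0.78 CPM in any library.

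**Figure D2:**
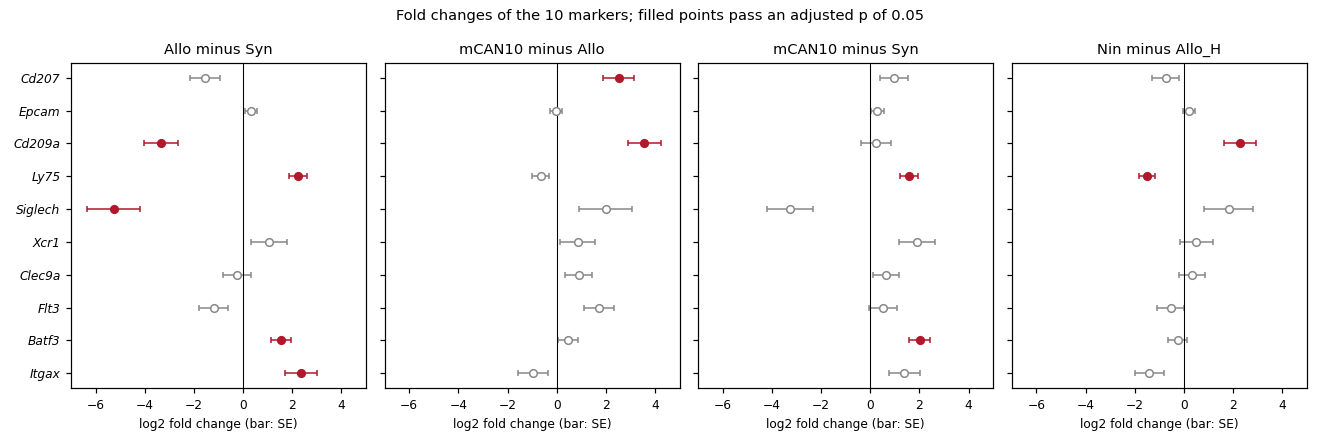
Log2 fold change of each marker in the 4 comparisons, with bars drawn from the SE of edgeR's fit. Filled points mark an adjusted p under 0.05. Cd209a lies at −3.35 in allogeneic isotype against syngeneic skin and at 3.57 in anti-IL1RAP against allogeneic isotype skin, while Epcam stays between −0.04 and 0.33 in all 4 comparisons.

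Anti-IL1RAP skin was next set against allogeneic isotype skin, both allogeneic, to show what the antibody changed. Cd207 and Cd209a rose and no marker fell, so 2 of 10 were called, where 10.8% of all genes tested were called (5.58% higher and 5.19% lower). The allogeneic isotype libraries also served in the comparison above, so a chance low value there would show in both. The median log2 fold change was 0.88 over the 10 markers and −0.01 over all genes with counts in these groups.

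Cd207 had 16.9, 18.1, 20.6 and 21.1 CPM in anti-IL1RAP skin, against 1.74, 2.6, 3.68 and 5.38 CPM in allogeneic isotype skin. The 4 treated libraries lay close together, and all of them lay far above the highest isotype library. Cd207 rose 5.74-fold (2.52 ± 0.62 log2, adjusted p = 0.0125, edgeR), with means of 19.2 ± 1.98 and 3.35 ± 1.57 CPM (SD, n = 4 each). Epcam did not follow it, at 172, 228, 190 and 184 CPM in anti-IL1RAP skin and 237, 162, 122 and 276 CPM in allogeneic isotype skin (−0.04 ± 0.24 log2, 95% interval −0.52 to 0.44, adjusted p = 0.978, edgeR).

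Cd209a had 1.85, 19.1, 28.2 and 36.6 CPM in anti-IL1RAP skin, against 1.28, 2.96, 0.725 and 2.25 CPM in allogeneic isotype skin. Anti-IL1RAP replicates 2, 3 and 4 stood far above the isotype range and replicate 1 lay within it. The log2 fold change was 3.57 ± 0.69 (adjusted p = 0.00329, edgeR), and 3.94 without anti-IL1RAP replicate 1 (adjusted p = 0.000816). That library was also the highest of its group in Xcr1, Clec9a, Ly75, Ptprc and the T cell and macrophage sums. Both calls held in all 18 alternative settings run for this comparison.

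Flt3 had 4.09, 4.11, 4.21 and 4.35 CPM in anti-IL1RAP skin, against 1.97, 1.56, 0.58 and 0.938 CPM in allogeneic isotype skin. The groups did not overlap, and the log2 fold change of 1.72 ± 0.60 missed the threshold (adjusted p = 0.0728, edgeR). It passed in 4 alternatives, among them the first run fitted alone (adjusted p = 0.0238) and DESeq2 (adjusted p = 0.0259). Cd207 and Flt3 were the only markers of the 10 whose groups did not overlap, where 23.1% of all genes did not. Siglech had 5, 5, 25 and 15 reads in anti-IL1RAP skin, against 1, 5, 0 and 4 reads in allogeneic isotype skin, which overlap (1.99 ± 1.08 log2, adjusted p = 0.277, edgeR).

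The 3 markers that were higher in allogeneic isotype than in syngeneic skin overlapped between treated and isotype skin. Ly75 had 7.83, 5.03, 4.3 and 5.49 CPM in anti-IL1RAP skin, against 9.49, 9.67, 6.92 and 9.75 CPM in allogeneic isotype skin (−0.66 ± 0.35 log2, adjusted p = 0.263, edgeR). Itgax had 29.5, 24.1, 10.9 and 33.9 CPM in anti-IL1RAP skin, against 55.1, 67.4, 33.6 and 36.5 CPM in allogeneic isotype skin, overlapping by 1 library (−0.97 ± 0.62 log2, adjusted p = 0.367, edgeR). Batf3 had 10.9, 10.6, 8.22 and 12 CPM in anti-IL1RAP skin, against 8.81, 10.1, 6.72 and 4.25 CPM in allogeneic isotype skin (0.47 ± 0.40 log2, adjusted p = 0.525, edgeR). Xcr1 varied from 1.29 to 10.3 CPM within the anti-IL1RAP group and Clec9a from 1.72 to 6.06 CPM, and neither was called (0.86 ± 0.71 log2, adjusted p = 0.511, and 0.89 ± 0.55 log2, adjusted p = 0.349, edgeR).

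In the wider lists, 1 of 12 Langerhans cell genes (Cd207) and 1 of 11 type 2 genes (Cd209a) rose and none of either list fell. Over all genes tested, 5.58% were called higher and 5.19% lower here. Of 12 type 1 genes 0 were called by edgeR, while 1 was called when the first run was fitted alone. Of 10 plasmacytoid genes 2 fell, Ccr9 (−1.95 ± 0.36 log2, adjusted p = 0.00228) and Ly6d (−1.02 ± 0.26 log2, adjusted p = 0.0157, edgeR), a gene that keratinocytes also make. Ly6d missed the threshold without allogeneic isotype replicate 4 or anti-IL1RAP replicate 4 (adjusted p = 0.0522 and 0.0546). Of 14 genes of mature and migrating dendritic cells 1 rose, the calcium channel subunit gene Cacnb3 (0.66 ± 0.19 log2, adjusted p = 0.0326, edgeR), and that call ended without any 1 of allogeneic isotype replicates 2, 3 and 4 or of the 4 anti-IL1RAP libraries (adjusted p between 0.06 and 0.0965). Ccr7 overlapped between the groups, at 4.09, 3.29, 2.25 and 4.08 CPM in anti-IL1RAP skin and 4.31, 6.91, 3.53 and 2.31 CPM in allogeneic isotype skin (−0.32 ± 0.68 log2, adjusted p = 0.85, edgeR).

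Among the growth factor and receptor genes, Flt3l alone was called. It rose, and had 36.7, 42.0, 48.7 and 59.2 CPM in anti-IL1RAP skin, against 26.6, 29.7, 22.7 and 25.3 CPM in allogeneic isotype skin, with no overlap (0.84 ± 0.23 log2, adjusted p = 0.0258, edgeR). The call was lost without allogeneic isotype replicate 3 or 4 or anti-IL1RAP replicate 3 or 4, at adjusted p = 0.0729, 0.0709, 0.0667 and 0.108. Il34, the growth factor of Langerhans cells, had 71.6, 79.6, 88.1 and 75.7 CPM in anti-IL1RAP skin, against 45.9, 66.3, 36.2 and 68.3 CPM in allogeneic isotype skin, with no overlap and no call (0.54 ± 0.30 log2, adjusted p = 0.283, edgeR). Csf1 (0.08 ± 0.21 log2, adjusted p = 0.888), Xcl1 (−0.71 ± 0.75 log2, adjusted p = 0.631) and Ccl20 (−1.25 ± 0.70 log2, adjusted p = 0.291, all edgeR) were not called.

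Ptprc overlapped between the groups, at 43.1 to 86 CPM in anti-IL1RAP skin and 36.5 to 97.8 CPM in allogeneic isotype skin (−0.08 ± 0.46 log2, adjusted p = 0.982, edgeR). Of 12 T cell genes 0 were called by edgeR. The 16 macrophage and monocyte genes summed to 1650 to 3350 CPM in anti-IL1RAP skin and 2030 to 5150 CPM in allogeneic isotype skin, which overlap. Of 12 hair follicle and sebaceous gland genes 5 rose, with sums of 2760 to 4100 CPM in anti-IL1RAP skin and 172 to 2330 CPM in allogeneic isotype skin. The basal keratinocyte genes summed to 7930 to 11500 CPM in anti-IL1RAP skin and 13400 to 17200 CPM in allogeneic isotype skin, without overlap. The 10 neutrophil genes summed to 32.3 to 61.3 CPM in anti-IL1RAP skin and 137 to 258 CPM in allogeneic isotype skin. The part of skin structure and of neutrophils in the rise of Cd207 and Cd209a was not tested. Muscle content as a covariate left Cd207 at 2.43 (adjusted p = 0.0168) and Cd209a at 3.52 (adjusted p = 0.00532, edgeR).

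Anti-IL1RAP skin set against syngeneic skin showed which markers still differed after treatment. Ly75 and Batf3 rose in anti-IL1RAP skin and none fell, so 2 of 10 were called, where 0.811% of all genes tested were called (0.777% higher and 0.0342% lower). Batf3 had 10.9, 10.6, 8.22 and 12 CPM in anti-IL1RAP skin, against 2.15, 3.99, 2.01 and 2.16 CPM in syngeneic skin (2.01 ± 0.42 log2, adjusted p = 0.0287, edgeR). Ly75 had 7.83, 5.03, 4.3 and 5.49 CPM in anti-IL1RAP skin, against 1.17, 2.1, 2.6 and 1.77 CPM in syngeneic skin (1.57 ± 0.36 log2, adjusted p = 0.0484, edgeR). Both stood apart from syngeneic skin in every library. The Ly75 call is at the threshold and ended in 14 of 18 alternative settings, including the loss of any 1 library (adjusted p between 0.062 and 0.257). The Batf3 call ended in 7 of 18, including the loss of syngeneic replicate 1, 3 or 4 (adjusted p = 0.0903, 0.115 and 0.133) or of anti-IL1RAP replicate 1, 2 or 4 (adjusted p = 0.104, 0.0742 and 0.0757).

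Siglech and Cd207 also had groups that did not overlap here, which makes 4 of 10 markers, where 18.8% of all genes had none. Siglech had 0.193, 0.158, 1.2 and 0.687 CPM in anti-IL1RAP skin, against 4.72, 4.46, 5.01 and 7.23 CPM in syngeneic skin. It was 9.74-fold lower without passing the test (−3.28 ± 0.93 log2, adjusted p = 0.112, edgeR), and it passed with the first run fitted alone (adjusted p = 0.0226) and with DESeq2 (adjusted p = 0.0184). Cd207 lay higher, at 16.9 to 21.1 CPM in anti-IL1RAP skin and 7.0 to 14.8 CPM in syngeneic skin (0.97 ± 0.58 log2, adjusted p = 0.499, edgeR). Cd209a overlapped, with means of 21.4 ± 14.9 CPM in anti-IL1RAP skin and 18.4 ± 5.06 CPM in syngeneic skin (0.22 ± 0.61 log2, 95% interval −0.98 to 1.42, adjusted p = 0.96, edgeR). The interval does not show that Cd209a was alike in both.

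For the other 5 markers the groups overlapped and none was called. The log2 fold changes were 1.91 ± 0.73 for Xcr1 (adjusted p = 0.257), 1.39 ± 0.63 for Itgax (adjusted p = 0.336), 0.64 ± 0.54 for Clec9a (adjusted p = 0.677), 0.53 ± 0.57 for Flt3 (adjusted p = 0.772) and 0.29 ± 0.25 for Epcam (adjusted p = 0.674, all edgeR). In the wider lists, Ccl17 of the type 2 genes (4.27 ± 0.99 log2, adjusted p = 0.048) and Pdcd1lg2 of the mature genes (4.19 ± 0.72 log2, adjusted p = 0.00907, edgeR) rose in anti-IL1RAP skin. Ccl17 had 2.85, 8.79, 2.01 and 16.3 CPM in anti-IL1RAP skin, against 0.078, 0.172, 0.716 and 0.556 CPM in syngeneic skin, and its call ended without any 1 of the 4 syngeneic libraries or of anti-IL1RAP replicates 1, 2 and 4 (adjusted p between 0.0986 and 0.16). Pdcd1lg2 had 4.09, 5.16, 1.86 and 6.91 CPM in anti-IL1RAP skin, against 0.195, 0.343, 0.313 and 0.131 CPM in syngeneic skin, and its call ended without syngeneic replicate 4 (adjusted p = 0.0707). Ptprc (1.52 ± 0.48 log2, adjusted p = 0.156), Ccr7 (2.56 ± 0.74 log2, adjusted p = 0.122), Flt3l (0.46 ± 0.23 log2, adjusted p = 0.398), Il34 (−0.04 ± 0.30 log2, adjusted p = 1), Csf1 (0.19 ± 0.21 log2, adjusted p = 0.781), Xcl1 (1.89 ± 0.82 log2, adjusted p = 0.319) and Ccl20 (0.82 ± 0.71 log2, adjusted p = 0.684, all edgeR) were not called.

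**Figure D3:**
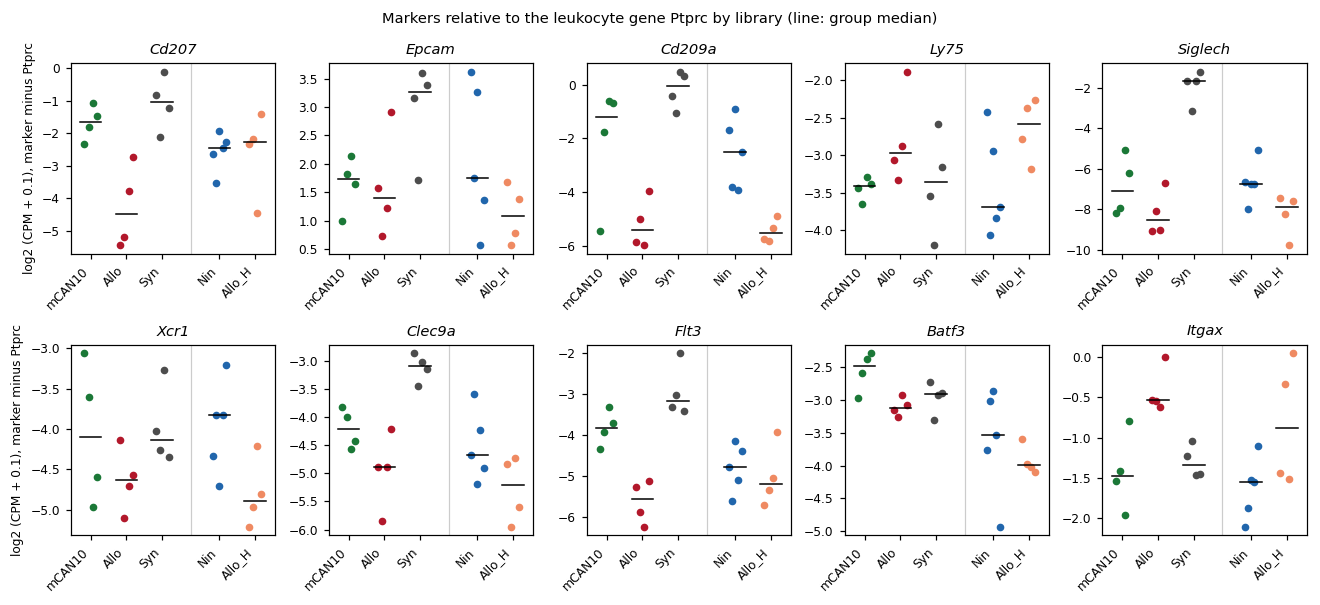
Level of each marker relative to the pan-leukocyte gene Ptprc in every library, as the difference of log2 (CPM + 0.1), by group, with no test made on these values. Cd207 has medians of −1.65 in anti-IL1RAP, −4.48 in allogeneic isotype and −1.03 in syngeneic skin, while Batf3 stays between −3.12 and −2.48 in these groups.

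Because Ptprc itself differed between allogeneic isotype and syngeneic skin, each marker was also described relative to it, as the difference of log2 (CPM + 0.1). On this scale the median of Cd207 was −1.65 in anti-IL1RAP, −4.48 in allogeneic isotype and −1.03 in syngeneic skin. Cd207 in allogeneic isotype skin, at −5.44 to −2.74, overlapped neither of the others. Flt3 had medians of −3.83 in anti-IL1RAP, −5.57 in allogeneic isotype and −3.17 in syngeneic skin, and here too the allogeneic isotype libraries (−6.25 to −5.14) lay below all others of the run. Clec9a had medians of −4.21 in anti-IL1RAP, −4.88 in allogeneic isotype and −3.08 in syngeneic skin, and its allogeneic isotype values (−5.84 to −4.21) lay below its syngeneic ones (−3.45 to −2.86), although its CPM overlapped. Batf3, which rose in CPM, had overlapping values per Ptprc in allogeneic isotype skin (−3.26 to −2.92) and syngeneic skin (−3.31 to −2.73). Ly75 behaved likewise, at −3.33 to −1.89 in allogeneic isotype skin and −4.20 to −2.58 in syngeneic skin. Itgax stayed higher per Ptprc in allogeneic isotype skin (−0.62 to 0.00) than in anti-IL1RAP skin (−1.97 to −0.79) and syngeneic skin (−1.47 to −1.04). Siglech had medians of −7.09 in anti-IL1RAP, −8.55 in allogeneic isotype and −1.64 in syngeneic skin. Cd209a had medians of −1.21 in anti-IL1RAP, −5.42 in allogeneic isotype and −0.05 in syngeneic skin. Anti-IL1RAP replicate 1, at −5.46, lay within the allogeneic isotype range of Cd209a (−5.97 to −3.96), and replicates 2, 3 and 4 lay above it.

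In the second run, nintedanib skin was set against allogeneic water skin. Cd209a rose and Ly75 fell, so 2 of 10 markers were called, where 9.31% of all genes tested were called (5.56% higher and 3.76% lower). The median log2 fold change was −0.02 over the markers and 0.06 over all genes with counts in these groups. Both calls were lost when the 9 libraries of this run were fitted alone, where all genes called were 94 in place of 1906, and with the lane note as a term.

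Cd209a had 6.46, 2.65, 13.7, 7.52 and 14.9 CPM in nintedanib skin, against 1.04, 1.59, 2.08 and 2.74 CPM in allogeneic water skin. Replicate 2 of the nintedanib group lay within the water range and the other 4 above it. The log2 fold change was 2.28 ± 0.65 (adjusted p = 0.0343, edgeR), with adjusted p = 0.0786 in the second run alone and 0.139 with the lane note as a term. It also missed the threshold without allogeneic water replicate 1, 2, 3 or 4 (adjusted p = 0.0908, 0.0908, 0.0746 and 0.0662) and without nintedanib replicate 1 or 3 (adjusted p = 0.0501 and 0.0766). Ly75 had 3.84, 2.23, 3.23, 7.89 and 6.41 CPM in nintedanib skin, against 8.61, 18.2, 9.54 and 17.4 CPM in allogeneic water skin. In CPM it was the only marker of the 10 without overlap, where 7.94% of all genes had none. Relative to Ptprc, Ly75 did overlap, at −4.06 to −2.42 in nintedanib skin and −3.19 to −2.27 in allogeneic water skin. On that scale Cd209a did not overlap, at −3.91 to −0.89 in nintedanib skin and −5.81 to −4.89 in allogeneic water skin. Ly75 fell by 1.51 ± 0.33 on the log2 scale (adjusted p = 0.0104, edgeR), with adjusted p = 0.109 in the second run alone and 0.162 with the lane note as a term.

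Cd207 overlapped widely, at 3.29, 3.29, 6.56, 20.7 and 17.2 CPM in nintedanib skin and 11.8, 20.9, 3.93 and 31.4 CPM in allogeneic water skin (−0.74 ± 0.55 log2, adjusted p = 0.442, edgeR). Its values in water-treated skin were spread out, with a group mean of 17 ± 11.8 CPM (SD, n = 4). Itgax had 4.79, 10.4, 8.77, 39.0 and 38.8 CPM in nintedanib skin, against 22.2, 74.9, 30.6 and 87.1 CPM in allogeneic water skin (−1.40 ± 0.58 log2, adjusted p = 0.134, edgeR). Flt3 had 0.668, 0.689, 1.34, 3.2 and 3.85 CPM in nintedanib skin and 1.04, 2.23, 2.53 and 5.42 CPM in allogeneic water skin (−0.53 ± 0.55 log2, adjusted p = 0.639, edgeR). Siglech had 2, 1, 3, 18 and 42 reads in nintedanib skin and 4, 4, 0 and 6 reads in allogeneic water skin (1.83 ± 1.00 log2, adjusted p = 0.269, edgeR). In Cd207, Itgax, Flt3, Siglech and Xcr1, nintedanib replicates 4 and 5 were the highest of their group.

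The same 2 libraries had the highest Ptprc of the nintedanib group, 114 and 84.1 CPM, where replicates 1, 2 and 3 had 20.9, 38.7 and 25.4 CPM. Ptprc in allogeneic water skin was 60.3, 94.5, 87.7 and 84.3 CPM, and the groups did not differ past the threshold (−0.53 ± 0.44 log2, adjusted p = 0.51, edgeR). Xcr1 had 0.947, 2.65, 0.877, 7.94 and 9.07 CPM in nintedanib skin and 1.53, 2.92, 4.66 and 2.91 CPM in allogeneic water skin (0.51 ± 0.68 log2, adjusted p = 0.74, edgeR). Clec9a ranged from 0.6 to 5.97 CPM in nintedanib skin and from 1.43 to 3.2 CPM in allogeneic water skin (0.34 ± 0.53 log2, adjusted p = 0.801, edgeR). Batf3 ranged from 1.45 to 9.81 CPM in nintedanib skin and from 4.85 to 5.94 CPM in allogeneic water skin (−0.25 ± 0.39 log2, adjusted p = 0.794, edgeR). Epcam ranged from 131 to 259 CPM in nintedanib skin and from 141 to 222 CPM in allogeneic water skin (0.21 ± 0.23 log2, adjusted p = 0.664, edgeR).

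In the wider lists, type 2 genes moved against each other, since of 11 tested Cd209a rose and Clec10a, a galactose-binding lectin of type 2 dendritic cells and macrophages, fell. Over all genes tested, 5.56% were called higher and 3.76% lower here. Clec10a had 24.2, 53.9, 37.0, 33.3 and 38.3 CPM in nintedanib skin, against 73.6, 111.0, 249.0 and 58.6 CPM in allogeneic water skin (−1.72 ± 0.33 log2, adjusted p = 0.00478, edgeR). Of 12 Langerhans cell genes 0 rose and 1 fell, Mfge8, a bridge for the uptake of dying cells (−0.74 ± 0.22 log2, adjusted p = 0.0447, edgeR). Of 10 plasmacytoid genes, Tcf4, the gene of the E protein E2-2, rose (0.61 ± 0.15 log2, adjusted p = 0.019) and Bst2 fell (−1.17 ± 0.36 log2, adjusted p = 0.0494, edgeR). Tcf4 is also made by fibroblasts and other cells. Of 14 mature dendritic cell genes 0 rose and 1 fell, Pdcd1lg2 (−1.91 ± 0.57 log2, adjusted p = 0.0423, edgeR), and of 12 type 1 genes 0 were called. Of 14 growth factor genes 0 rose and 2 fell, Csf1, the macrophage growth factor (−0.66 ± 0.20 log2, adjusted p = 0.0441), and Csf2rb (−1.43 ± 0.41 log2, adjusted p = 0.035, edgeR). Not called were Flt3l (−0.17 ± 0.22 log2, adjusted p = 0.73), Il34 (0.17 ± 0.28 log2, adjusted p = 0.827), Xcl1 (−0.62 ± 0.75 log2, adjusted p = 0.704), Ccl20 (−0.84 ± 0.72 log2, adjusted p = 0.53) and Ccr7 (−1.33 ± 0.64 log2, adjusted p = 0.201, all edgeR). None of these list calls held when the 9 libraries of the second run were fitted alone. Of 16 macrophage genes 0 rose and 2 fell, with sums of 816 to 3370 CPM in nintedanib skin and 2290 to 4270 CPM in allogeneic water skin. The 10 neutrophil genes summed to 18.3 to 99.8 CPM in nintedanib skin and 120 to 429 CPM in allogeneic water skin, without overlap. Of 12 hair follicle and sebaceous gland genes 5 rose and 0 fell (2 rose with the lane note as a term and 10 in DESeq2). Their sums were 32500, 2180, 17700, 2310 and 2960 CPM in nintedanib skin, against 902, 320, 1090 and 482 CPM in allogeneic water skin, without overlap and with nintedanib replicates 1 and 3 far above the others. The basal keratinocyte genes summed to 4650 to 13000 CPM in nintedanib skin and 10900 to 17600 CPM in allogeneic water skin. The part of macrophages, neutrophils and skin structure in these results was not tested.

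**Figure D4:**
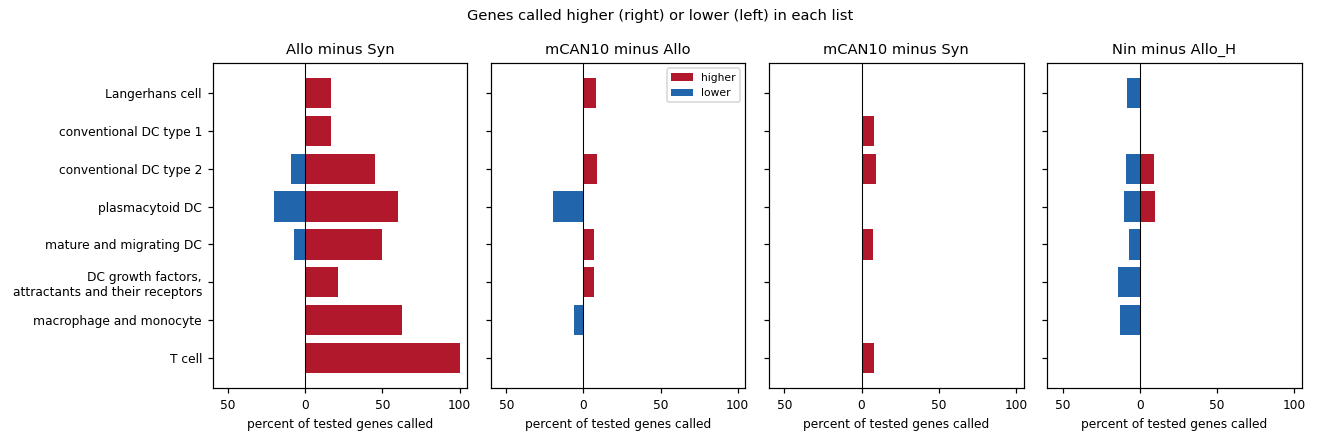
Genes of each list called higher (to the right) or lower (to the left) in the 4 comparisons by edgeR at an adjusted p under 0.05. In allogeneic isotype against syngeneic skin 12 of 12 T cell genes were higher, and of 10 plasmacytoid genes 6 were higher and 2 lower.

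Whether anti-IL1RAP and nintedanib changed the markers differently was tested as the difference between their effects, each against its own control in its own run. No marker and 0 of 20462 genes (0%) passed in edgeR, while 2 markers and 2495 genes (12.2%) had an unadjusted p under 0.05 and DESeq2 called 1 marker and 363 genes. The marker was Cd207, whose log2 fold change was 2.52 with anti-IL1RAP and −0.74 with nintedanib. The difference of 3.26 ± 0.81 had a 95% interval of 1.66 to 4.86 and an adjusted p of 0.166 in edgeR and 0.00878 in DESeq2. Flt3 came next, with a difference of 2.25 ± 0.81 (95% interval 0.66 to 3.83, adjusted p = 0.271, edgeR). Cd209a, called higher under both treatments, had a difference of 1.29 ± 0.89 (95% interval −0.45 to 3.04, adjusted p = 0.617, edgeR). The remaining 7 differences lay between −0.25 for Epcam and 0.85 for Ly75, with adjusted p of 0.51 or more. The treatments also differ in vehicle and counting run, which cannot be told apart from the drugs.

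Among themselves, the markers went together only in part, described by Pearson's r of log2 (CPM + 0.1) over the 12 libraries of the first run and the 9 of the second. These values carry the group differences and are descriptions only. Xcr1 and Clec9a, both of type 1 dendritic cells, had r of 0.78 and 0.84, and Ly75 and Itgax had r of 0.88 and 0.89. Cd207 and Epcam, both used to mark Langerhans cells, had r of 0.03 and 0.07. Cd207 and Flt3 had r of 0.71 and 0.78. Cd207 and Cd209a had r of 0.72 in the first run and −0.02 in the second, and Ly75 and Siglech −0.89 and 0.21.

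The genes most like each marker over the first run differed in how far they held in the second. Nearest to Cd207 were H2-M5 (r of 0.95, and 0.84 in the second run), AU041133 (0.95 and −0.23) and Cyp4f37 (0.94 and 0.94). Nearest to Itgax were Adgrg5 (0.97 and 0.94), Cyp4f18 (0.97 and 0.93) and Ccdc88b (0.97 and 0.92). Nearest to Ly75 were H2-D1 (0.98 and 0.67), Havcr2 (0.98 and 0.89) and Cxcr6 (0.98 and 0.71). Nearest to Batf3 were Cass4 (0.97 and 0.80), Kcnab2 (0.96 and 0.72) and Myo1g (0.96 and 0.76). Nearest to Epcam were Rcn1 (0.98 and 0.93), Slc44a1 (0.94 and 0.73) and Vangl1 (0.93 and 0.74).

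For the other 5 markers the likeness mostly did not carry over to the second run. Nearest to Cd209a were Upp2 (0.96 and 0.19), Abhd14a (0.95 and 0.39) and Dqx1 (0.95 and 0.56). Nearest to Siglech were Jmjd4 (0.93 and −0.54), Mamstr (0.93 and −0.23) and Hacd1 (0.93 and −0.19), of which Mamstr and Hacd1 are muscle genes. Nearest to Xcr1 were Dek (0.94 and −0.31), Paxip1 (0.91 and −0.65) and Btla (0.91 and 0.49). Among the genes nearest to Clec9a were Tns3 (0.87 and 0.60) and Tnrc18 (0.86 and 0.02). Nearest to Flt3 were Plekhh2 (0.94 and −0.12), Atp8b2 (0.93 and 0.84) and Rnf24 (0.93 and −0.40).

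The libraries do not mark strand, and 6 of the 10 markers share sequence with another gene in the GENCODE vM21 annotation. Clec9a shares 184 exon bases (5.59%) with Clec1b on the same strand, and Ly75 shares 249 exon bases (3.61%) with Gm13571 on the other strand, so a few of their reads are uncertain. Of the stretches of 50 bases in Itgax transcripts, 8.02% also occur in Itgad, and the authors' treatment of such reads is not stated. In Siglech, Xcr1 and Flt3 the share with any 1 other gene was at most 0.333%, 0.863% and 0.0326%. Cd207, Epcam, Cd209a and Batf3 shared no such stretch with any other gene.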

How the data were processed

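RNA sequencing counts of 21 mouse skin libraries were used. Per the submitters' processing notes, the authors used FastQC, Trimmomatic, STAR and featureCounts with the GRCm39 build, and what they deposited are raw counts for each gene symbol in each library. The sources used here state neither versions and settings nor an annotation. Among 64050 symbols, both counting runs gave counts to 21830, the first run alone to 12094 and the second alone to 6185.

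The fit was made in edgeR 4.0.16 (R 4.3.3). After filterByExpr (min.count of 10) and TMM scaling, all 21 libraries entered 1 quasi-likelihood fit with a mean per group, so the spread is shared over groups. A gene was called changed at a Benjamini-Hochberg adjusted p under 0.05 over all 20462 genes. SE is the size of the log2 fold change divided by the square root of F, and 95% intervals use the normal quantile. DESeq2 1.42.0 was an alternative, and the pipeline was tested on simulated data. The other alternatives were RLE factors, no filter, only the groups or the run compared, the replicate number as a block, the lane note as a term, each library left out in turn, and a pseudocount of 0.5 in place of 0.1 CPM. A further 3 were added after seeing the data. These were muscle content as a covariate, the anti-IL1RAP and nintedanib libraries with Y-linked counts left out, and only symbols counted in both runs. The syngeneic libraries, which also had Y-linked counts, were kept, and allogeneic isotype against syngeneic skin was not rerun in that setting.

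The 10 markers and all gene lists were chosen with earlier results of these data known. The genes named are the 10 markers, up to 4 called genes of lowest p in each dendritic cell list, 8 genes given in every comparison (Ptprc, Flt3l, Xcl1, Csf1, Csf2, Il34, Ccl20 and Ccr7), and for each marker the 3 genes of highest r over the first run with a mean of at least 1 CPM there. Some genes that these rules name are not reported here. Lists share some genes, among them Xcl1, Id2, Zbtb46, Tgfb1, Csf1r, Il34, Cd3g, Krt5 and Krt14. Promoter windows come from RefSeq on GRCm38.p6, where all 10 markers matched, and gene overlap from GENCODE vM21, an older build than that of the counts. Replicate libraries differed beyond sampling noise in every pair (chi-square per degree of freedom of 16.9 to 414), so none was counted as a repeat.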

Additional observations from a re-analysis of the deposited data

Results flagged for a closer look

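In 4 of the 50 sets of replicates (10 markers in 5 groups), 1 library stood apart from the others of its group by Dixon's criterion at the 95% level, which chance gives in about 1 in 20 sets. Ly75 had 6.92 CPM in allogeneic isotype replicate 3, below the 9.49 to 9.75 CPM of the other libraries of that group. The remaining 3 all concern syngeneic replicate 2, which was high in Itgax (19.6 CPM, others 5.69 to 6.28), in Batf3 (3.99 CPM, others 2.01 to 2.16) and in Clec9a (3.6 CPM, others 1.8 to 1.95). The same library had the highest Ptprc of the syngeneic group, 40.3 CPM where the others had 14.8 to 16.6 CPM. Without syngeneic replicate 2, the log2 fold change of allogeneic isotype over syngeneic skin was 3.00 for Itgax and 1.83 for Batf3, and without allogeneic isotype replicate 3 it was 2.34 for Ly75. All of these remained called (edgeR).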

How the results depend on the processing

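Of 986 marker values under the alternatives, 915 kept their direction and their side of the threshold, 33 lost a call, 17 gained one and 21 turned sign. The 5 calls in allogeneic isotype against syngeneic skin and the 2 in anti-IL1RAP against allogeneic isotype skin held in all alternatives run. For anti-IL1RAP against syngeneic skin the number of markers called was 1 (1 higher) with RLE factors, with no filter, with the replicate block by title number, with muscle content and with only symbols counted in both runs, was 1 (0 higher, 1 lower) with the replicate block by description number, and was 4 (1 lower) with only the groups compared. One was also lower, namely 1 (Siglech), in the first run alone and in DESeq2. All genes called there were 166, against 2131 with only the groups compared, 505 in the first run alone, 98 and 60 with the replicate block by title and by description number, 674 in DESeq2, 108 with muscle content, and 106 with only shared symbols. For nintedanib against water, 0 markers were called (0 higher, 0 lower) with only the groups or the run compared and with the lane note as a term, and 2 were lower with the replicate block by title number and without the libraries with Y-linked counts. All genes called there were 1906, against 94 with only the groups or the run compared, 29 with the lane note, 1190 with no filter and 3058 in DESeq2. For anti-IL1RAP against allogeneic isotype skin they were 2204, against 3664 in the first run alone. In the difference between the treatments DESeq2 called 1 marker (1 higher). The cause of these shifts was not tested.

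With 1 library left out, all genes called ranged from 3580 to 4953 in allogeneic isotype against syngeneic skin, from 1284 to 2168 in anti-IL1RAP against allogeneic isotype skin, from 31 to 152 in anti-IL1RAP against syngeneic skin and from 782 to 2794 in nintedanib against water. Markers called were 0 to 1 (0 to 1 higher) in anti-IL1RAP against syngeneic skin and 1 to 2 (0 to 1 higher) in nintedanib against water. The sign of uncalled values turned as follows. With the replicate block by title number, Epcam was 0.00 in anti-IL1RAP against isotype, Cd209a −0.01 in anti-IL1RAP against syngeneic, and Xcr1 −0.08 and Il34 −0.03 in nintedanib against water. With the block by description number Cd209a was −0.41 in anti-IL1RAP against syngeneic and Ptprc 0.01 in anti-IL1RAP against isotype. With muscle content Epcam was 0.07 in anti-IL1RAP against isotype, Il34 0.05 in anti-IL1RAP against syngeneic, and Siglech −0.27 in the difference between treatments. Without the libraries with Y-linked counts Clec9a was −0.65 and Il34 −0.21 in nintedanib against water. Leaving out 1 library gave −0.21 to 0.57 for Cd209a and −0.14 to 0 for Il34 in anti-IL1RAP against syngeneic, −0.43 to 0.05 for Clec9a in allogeneic isotype against syngeneic, −0.24 to 0.6 for Clec9a, −0.92 to 0.01 for Flt3 and −0.05 to 0.34 for Il34 in nintedanib against water, −0.22 to 0.16 for Epcam, −0.28 to 0.16 for Ptprc and −0.52 to 0.01 for Ccr7 in anti-IL1RAP against isotype, and −0.51 to 1.35 for Siglech and −0.33 to 0.81 for Xcr1 in the difference between treatments. A pseudocount of 0.5 CPM moved the mean of Siglech relative to Ptprc to −6.64 in allogeneic isotype, −5.56 in nintedanib and −6.88 in water skin. Same-numbered libraries of compared groups had deviations correlated at −0.36 to 0.35. So few correlations cannot settle whether the replicate numbers pair the libraries, and the main fit used no pairing. Siglech did not pass the filter, and gave no value, with only the groups compared in anti-IL1RAP against isotype, nor in nintedanib against water with only the groups or the run compared or with the lane note. Its counts of 0 to 25 reads in anti-IL1RAP and allogeneic isotype libraries limit its precision.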
